A study of Mus musculus with 6 samples.

Results

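The histone genes of the mouse were compared between neural progenitor cells (NPC) and embryonic stem cells (ESC). They were taken by gene symbol from the platform's probe annotation: linker H1 genes, clustered H2A, H2B, H3 and H4 genes, and the variant genes of the H2A.Z, H2A.X, H2A.J and H3.3 type, 58 of the 21893 named genes on the array. The NPC group was collected by FACS for GFP at 5 days of differentiation, in medium with the supplements NB27 and Neuro2, and the ESC group held the undifferentiated cells, with 3 biological replicates and 1 array each. All samples were of strain 129/Ola. The 3 ESC samples are given as 46c, a single mouse ES cell line in which GFP is expressed from the Sox1 locus, although the title of ESC replicate 3 spells the line's name with an extra digit. The NPC labels name no line, only the sort for GFP. Which fraction of the sort was used is not stated. Values are quantile-normalised log2 signals of single-colour Agilent arrays. A change is the NPC mean minus the ESC mean on that scale, given ± SE with n = 3 arrays a group, and p-values are from limma with Benjamini-Hochberg adjustment over all 21893 genes.

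Histones package DNA: H2A, H2B, H3 and H4 form the nucleosome core, and H1 binds the linker DNA between cores. Most core histone genes lie in clusters, come in many near-identical copies, are transcribed in S phase, and give transcripts that end in a stem-loop in place of a poly(A) tail. Most variant or replacement histones come from genes outside the clusters. Most are also made through the whole cell cycle from transcripts with poly(A) tails, and they are exchanged into chromatin at promoters, enhancers and other sites. The amplification kit named in the labels copies RNA from its poly(A) tail, so the signals of clustered genes depend on how many of their transcripts carry one. The part of this in the values was not tested.

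Most of the ES cell and neural progenitor markers bore out the labels. Pou5f1, the core ES cell factor, had 6.48, 6.54 and 6.98 in NPC and 14.45, 13.89 and 14.92 in ESC, and Zfp42, a naive ES cell marker, fell by 8.56 ± 0.37. Hes5, a Notch effector of neural progenitors, rose by 8.79 ± 0.24, while Sox1, which drove the sort, is no finding at a change of 3.01 ± 0.39. Of the ES cell markers 5 of 6 fell and 0 rose, with mean signals per array of 7.34 to 7.77 in NPC and 12.82 to 12.99 in ESC. The exception was Nanog, at 7.17 to 7.81 in NPC and 6.58 to 7.41 in ESC. Its change of 0.59 ± 0.30 did not pass (adjusted p = 0.258). Of the neural progenitor markers 4 of 5 rose, with 12.18 to 12.51 in NPC and 6.74 to 6.79 in ESC. That count and these means include Sox1. The others that rose were Hes5, Fabp7 (10.54 ± 0.24) and Nes (3.78 ± 0.66), and Pax6 did not pass (1.81 ± 1.13, adjusted p = 0.357). Of the neuron markers 3 of 5 rose, with mean signals of 11.07 to 11.47 in NPC and 8.11 to 9.51 in ESC. Of the other lineages, 1 of 3 endoderm markers rose (Foxa2, which floor plate cells express too, by 5.69 ± 0.35). The list means were 5.46 to 5.78 in NPC and 4.21 to 4.42 in ESC, higher in NPC through Foxa2 alone. Sox17 and Gata6 were lower in NPC, by changes of -0.58 ± 0.22 and -1.18 ± 0.42. They did not pass (adjusted p = 0.128 and 0.114), but Gata6 fell in the fit with replicate number as a block (adjusted p = 0.0151). Of 2 mesoderm and 3 trophectoderm markers 0 rose, and 1 and 2 fell. The part of neurons or other cells in the changes below was not tested, and in such bulk samples fewer cells of a type and less RNA per cell cannot be told apart.

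Few histone genes passed the test between the cell states in the fit without a block. In NPC, 4 of 58 rose and 0 fell at an adjusted p under 0.05 in limma, which is 6.9% of them. Among all genes 20.6% passed, 11.1% higher and 9.54% lower in NPC. The genes that rose were H2bu2, H2az2, H2ac1 and H3f3a. The median change of the 58 genes was 0.18, and of all genes 0.01. The intervals of 25 of the 58 genes (95%) lay wholly inside a 2-fold change in either direction, 43.1% of them, against 26.7% of all genes. The groups did not overlap for 15 of the 58, or 25.9%, where the share among all genes was 37.0%. Of the 58, 44 had a mean signal of 6 or more over the 6 arrays and 14 a lower one, and no detection calls were used.

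NPC and ESC arrays with replicate number 2 or 3 deviated together (r = 0.721 and 0.768), those with number 1 less so (0.189). The labels state no covariate, and a block by replicate number was run on the basis of these correlations. With it 11 of 58 rose, or 19.0%, near the share of all genes that rose, and 0 fell. With the block 35.7% of all genes passed, 18.9% higher and 16.7% lower. These 11 include the 4 genes above. The count of 4 was 1 without ESC replicate 1 and 2 without ESC replicate 2, NPC replicate 1 or NPC replicate 2.

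**Figure D1:**
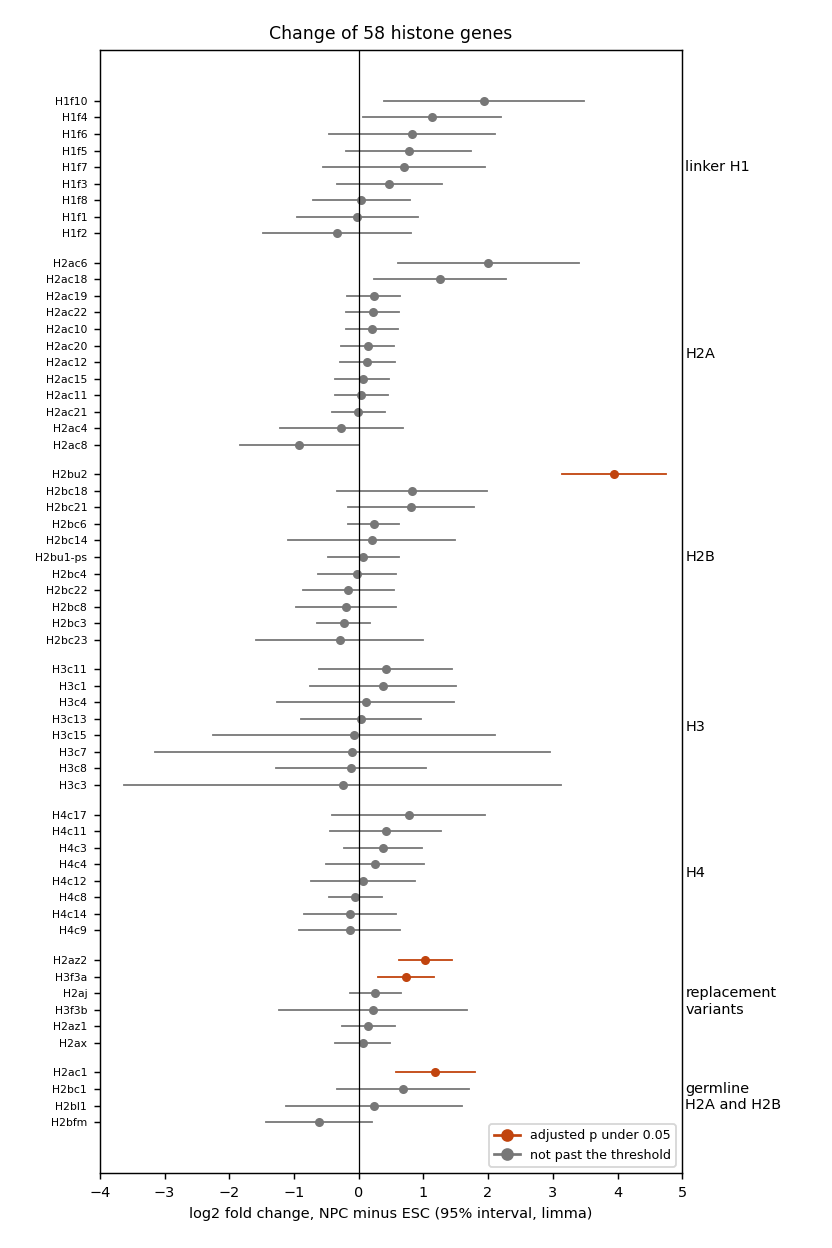
Log2 fold change of the 58 histone genes, NPC minus ESC, by class. Points are the changes, bars the 95% intervals from limma with 3 arrays a group, and coloured genes have an adjusted p under 0.05. H2bu2 stands at 3.95, the bright H2A genes sit near 0 with short bars, and H3c3 and H3c7 have the longest bars.

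H2bu2, an H2B gene of the small Hist3 cluster (older symbol Hist3h2ba), showed the largest change of the 58 genes. Its signal was 10.96, 11.22 and 11.85 in NPC and 7.01, 7.41 and 7.78 in ESC. Every NPC array was thus far above every ESC array, and the rise was 3.95 ± 0.33, or 15.4-fold (adjusted p = 0.000739). It passed in 6 of 6 fits that left out 1 array (adjusted p 0.00214 to 0.00597) and with each array centred on housekeeping genes (0.00038). The pseudogene H2bu1-ps of the same cluster read 4.39, 4.28 and 4.62 in NPC and 4.04, 4.41 and 4.61 in ESC, with overlapping groups and a change of 0.07 ± 0.23.

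H2aw, the H2A gene of that cluster (Hist3h2a), is outside the 58 genes and was looked up after the rise of H2bu2 was seen. It had 9.50, 9.80 and 10.36 in NPC and 7.44, 7.37 and 8.80 in ESC, a rise of 2.02 ± 0.46 with groups that did not overlap (adjusted p = 0.0296). It passed in 1 of 6 fits without an array (highest adjusted p 0.112, without ESC replicate 1). H2aw overlaps Trim17, a ubiquitin ligase gene, in the RefSeq annotation of GRCm38.p6. Trim17 read 5.15, 5.36 and 5.01 in NPC and 5.33, 5.45 and 5.62 in ESC and did not pass (-0.30 ± 0.19, adjusted p = 0.378). H2bu2 itself overlaps the long noncoding RNA gene Gm51864 there, and the strand each probe reads is not known here. The next genes to either side, Rnf187 and Trim11, gave changes of 0.57 ± 0.25 and 0.07 ± 0.32 and did not pass (adjusted p = 0.187 and 0.924). With the block, Rnf187 had an adjusted p of 0.0478.

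The promoter windows of the H2B genes were read from the RefSeq table (GRCm38.p6, 250 bases before to 50 after the annotated start), which held windows for 51 of the 58 genes. Matches of the octamer ATTTGCAT, which POU factors bind in H2B promoters, of CCAAT and of TATAAA were searched on both strands. H2bu2 is shown as the gene that rose and H2bc14, an H2B gene of the large Hist1 cluster, as the brightest H2B gene, germline genes aside, that did not pass. Capitals mark the matches. The H2bu2 window is chr11:58948661-58948960 on the plus strand and the H2bc14 window chr13:21721794-21722093 on the plus strand.
H2bu2: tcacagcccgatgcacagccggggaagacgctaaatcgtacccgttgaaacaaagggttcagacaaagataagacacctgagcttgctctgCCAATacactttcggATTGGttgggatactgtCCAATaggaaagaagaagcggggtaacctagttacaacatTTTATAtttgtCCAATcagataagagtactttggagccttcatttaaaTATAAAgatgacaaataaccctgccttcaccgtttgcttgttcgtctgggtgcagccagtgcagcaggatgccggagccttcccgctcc
H2bc14: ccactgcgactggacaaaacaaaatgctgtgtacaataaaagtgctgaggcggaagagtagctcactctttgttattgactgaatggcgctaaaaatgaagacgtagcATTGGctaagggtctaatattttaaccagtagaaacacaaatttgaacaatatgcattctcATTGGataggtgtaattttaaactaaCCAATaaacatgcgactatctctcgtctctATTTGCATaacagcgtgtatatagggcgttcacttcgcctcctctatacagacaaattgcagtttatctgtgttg

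The H2bu2 window held 4 CCAAT matches and 2 TATAAA matches, 1 of them starting 39 bases before the annotated start, and 0 octamers. The H2bc14 window held 3 CCAAT matches and 1 octamer, starting 25 bases before its annotated start. Of 8 H2B genes with a window, 5 held the octamer. The 3 without it were H2bu2, H2bc22 and H2bc23. The H2aw window held 1 octamer. Among all 27025 genes with a window, 1.97% held the octamer, 41.1% CCAAT and 15.7% TATAAA. A match is a string of letters and not a measured binding site.

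**Figure D2:**
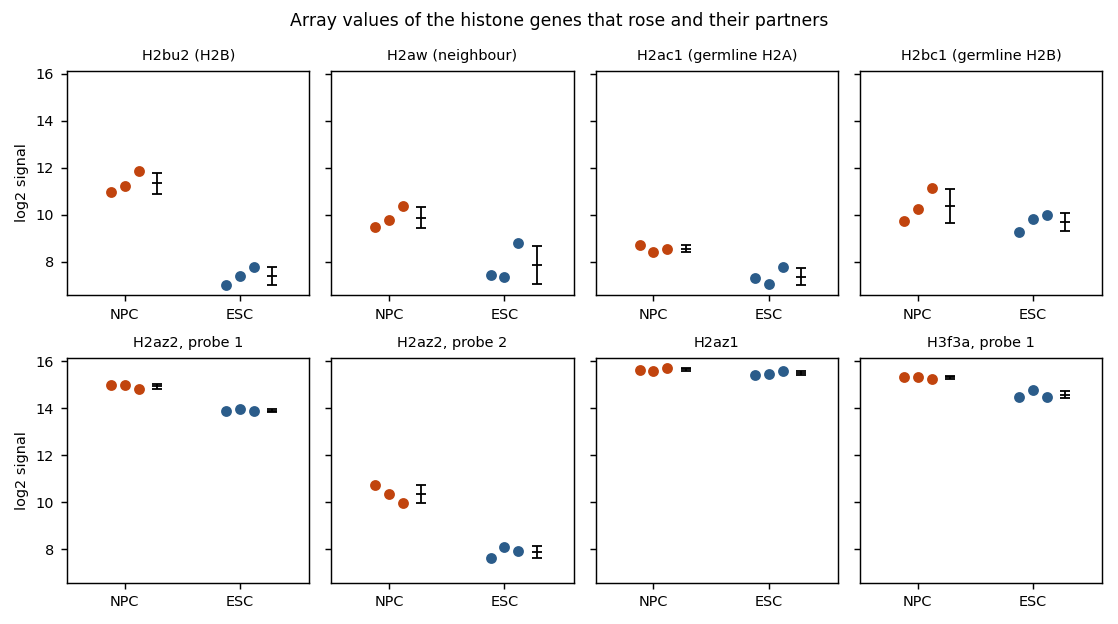
Log2 signal of single arrays (points, NPC left of ESC) for the genes that rose and their neighbours or paralogs, with mean ± SD of 3 arrays beside them. The NPC and ESC points do not overlap for H2bu2, H2aw, H2ac1, both probes of H2az2 and the brighter probe of H3f3a, and overlap for H2bc1 and H2az1.

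H2A.Z marks promoters and enhancers, and its genes H2az1 and H2az2 encode near-identical proteins. H2az2 had 14.97, 14.99 and 14.82 in NPC and 13.86, 13.95 and 13.87 in ESC, 2 tight groups well apart, and rose by 1.03 ± 0.17, or 2.04-fold (adjusted p = 0.0082). Its second, dimmer probe had 10.73, 10.36 and 9.98 in NPC and 7.62, 8.11 and 7.94 in ESC. That probe rose by 2.47 ± 0.27 (adjusted p = 0.00394 over all 55681 probes), so its groups too were apart. H2az1 had 15.64, 15.59 and 15.70 in NPC and 15.41, 15.46 and 15.60 in ESC and did not pass, with a change of 0.15 and a 95% interval of -0.26 to 0.56 (adjusted p = 0.625). Its second probe gave 0.27 ± 0.19. The difference between the 2 genes was not tested, and H2az1 lies nearer to the top of the signal scale, at 16.18. The call of H2az2 ended without ESC replicate 1 (adjusted p = 0.0503) and with housekeeping centring (adjusted p = 0.09, change 0.95). That centring used 14 genes, among them Ywhaz, at 6.68 to 13.50 in NPC, and Hprt, itself called higher in NPC (1.75 ± 0.43). Their part in calls that ended with the centring, here and below, was not tested.

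The windows of the pair are shown to compare their starts, with CCAAT matches on either strand in capitals. The H2az2 window is chr11:6444394-6444693 on the minus strand and the H2az1 window chr3:137864237-137864536 on the plus strand.
H2az2: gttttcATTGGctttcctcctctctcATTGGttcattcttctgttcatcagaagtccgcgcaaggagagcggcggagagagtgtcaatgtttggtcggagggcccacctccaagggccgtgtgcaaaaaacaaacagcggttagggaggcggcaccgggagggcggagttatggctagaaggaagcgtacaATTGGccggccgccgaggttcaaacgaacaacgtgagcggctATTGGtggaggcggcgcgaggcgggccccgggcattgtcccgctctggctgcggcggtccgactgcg
H2az1: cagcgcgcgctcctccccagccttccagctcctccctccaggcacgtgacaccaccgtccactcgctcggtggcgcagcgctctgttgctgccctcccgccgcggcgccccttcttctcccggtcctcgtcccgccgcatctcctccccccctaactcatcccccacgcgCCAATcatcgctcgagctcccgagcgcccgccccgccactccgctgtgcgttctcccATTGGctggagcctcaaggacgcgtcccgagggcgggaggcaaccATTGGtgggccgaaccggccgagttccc
The H2az2 window held 4 CCAAT matches and the H2az1 window 3, and neither held an octamer or TATAAA. Their G and C content was 60.7% and 71.3%, against a median of 45.0% over the 33 clustered core genes with a window and 52.8% over all genes.

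Neither of the other H2A variants passed in the test as designed. H2ax, which is phosphorylated at DNA breaks, had 14.28, 14.23 and 14.30 in NPC and 14.07, 14.20 and 14.34 in ESC, with overlapping groups and a change of 0.07 (interval -0.36 to 0.49, adjusted p = 0.859). H2aj had 15.97, 15.95 and 15.88 in NPC and 15.65, 15.66 and 15.73 in ESC. Its groups did not overlap, but the change of 0.25 ± 0.16 passed only with a floor of 6 under the signals (adjusted p = 0.0165, against 0.366). All these values lay above 6, so the floor left them as they were. It moved the call only through the other genes in the fit. The other probe of H2aj gave -0.56 ± 0.41 and did not pass either.

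H3.3, the replacement form of H3, is encoded by H3f3a and H3f3b, which give the same protein. The brighter probe of H3f3a had 15.32, 15.34 and 15.25 in NPC and 14.48, 14.75 and 14.49 in ESC, groups that did not overlap, and a rise of 0.73 ± 0.18, or 1.66-fold (adjusted p = 0.0349). The call held in 0 of 6 fits without an array (adjusted p 0.0504 to 0.148) and ended with housekeeping centring (0.262), with the mean of both probes (0.51) and with adjustment over all probes (0.054). The change was 0.68 to 0.82 without 1 array, 0.65 with housekeeping centring and 0.56 with the mean of both probes. The second probe of H3f3a had 13.37, 12.65 and 15.34 in NPC and 13.52, 11.94 and 14.75 in ESC. Its groups overlapped and its change was 0.38 ± 0.98. H3f3b had 13.57, 12.82 and 14.82 in NPC and 13.47, 12.88 and 14.18 in ESC by its brightest probe and did not pass (0.22 ± 0.59, adjusted p = 0.859). Its other probes gave 0.74 ± 0.40 and 1.21 ± 0.35, with adjusted p = 0.376 and 0.102 over all probes, and the last passed with the block (adjusted p = 0.0236).

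H2ac1 and H2bc1 encode TH2A and TH2B, histones known from testis and oocyte, and lie head to head in the Hist1 cluster. H2ac1 had 8.73, 8.42 and 8.55 in NPC and 7.32, 7.05 and 7.77 in ESC, without overlap, and rose by 1.18 ± 0.25, or 2.27-fold (adjusted p = 0.0208). The call held in 2 of 6 fits without an array: it ended without ESC replicate 1 (0.0903), ESC replicate 2 (0.0545), NPC replicate 1 (0.0805) and NPC replicate 2 (0.0571), all adjusted p. H2bc1 had 9.74, 10.26 and 11.15 in NPC and 9.27, 9.83 and 9.98 in ESC. The groups overlapped, and the change of 0.69 ± 0.41 did not pass (interval -0.33 to 1.71, adjusted p = 0.339). Their promoter windows share 220 bases, so 1 is shown, that of H2ac1 at chr13:23934187-23934486 on the plus strand, with its octamer (read on the opposite strand as ATGCAAAT), CCAAT and TATAAA matches in capitals.
H2ac1: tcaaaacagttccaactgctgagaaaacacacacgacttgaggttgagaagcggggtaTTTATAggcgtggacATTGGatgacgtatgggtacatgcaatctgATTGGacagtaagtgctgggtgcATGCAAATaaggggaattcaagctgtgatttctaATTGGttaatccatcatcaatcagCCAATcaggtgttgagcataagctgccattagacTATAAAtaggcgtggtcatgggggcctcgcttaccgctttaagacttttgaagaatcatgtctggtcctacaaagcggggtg
It held 1 octamer, 4 CCAAT matches and 2 TATAAA matches. The other germline genes, H2bfm and H2bl1, encode H2B-like proteins of male germ cells and gave changes of -0.62 ± 0.33 and 0.23 ± 0.55 without passing (adjusted p = 0.282 and 0.844). The second, dim probe of H2bfm gave the opposite sign, at 0.62 ± 0.37, and that of H2bl1 gave 0.02 ± 0.47.

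Of the 12 clustered H2A genes, 0 rose and 0 fell, where 11.1% and 9.54% of all genes did. Their median change was 0.14. A block of 7 of them (H2ac10, H2ac11, H2ac12, H2ac15, H2ac19, H2ac20 and H2ac22) read between 15.37 and 16.14 on every array, near the top of the scale at 16.18. Only 1.04% of all genes had a mean of 15 or more. Their changes ran from 0.04 to 0.23, and 7 of 7 intervals lay inside a 2-fold change. For 3 of the 7 (H2ac10, H2ac19 and H2ac22) the groups did not overlap, with NPC higher, where the share among all genes was 37.0%. A second bright probe of H2ac15 had 15.44, 15.36 and 15.59 in NPC and 15.02, 14.80 and 15.33 in ESC, without overlap, and its larger change of 0.41 ± 0.21 did not pass (adjusted p = 0.335 over all probes). H2ac10 alone of the 7 passed in any setting, again with the floor (adjusted p = 0.0375, change 0.20), which changed none of its own values. H2ac12, the brightest, had 16.06, 16.14 and 15.88 in NPC and 15.88, 15.94 and 15.85 in ESC, with a change of 0.13 (interval -0.29 to 0.56, adjusted p = 0.678). These H2A copies are nearly alike in sequence. Probe sequences were not used here, so the probes may read each other's transcripts, and saturation flags were not used either.

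Among the dimmer H2A genes, H2ac6 had 3.28, 2.92 and 4.88 in NPC and 1.16, 2.06 and 1.86 in ESC, close to the bottom of the scale at 1.03. Its groups did not overlap, the change was 2.0 ± 0.57 (0 with values under 6 set to 6), and it passed only with the block (adjusted p = 0.034, against 0.0594), with housekeeping centring (0.0451) and without NPC replicate 3 (0.0477). H2ac18 (Hist2h2aa1) had 7.30, 7.43 and 8.09 in NPC and 5.64, 6.41 and 7.0 in ESC, a change of 1.26 ± 0.41 that passed with the block alone (adjusted p = 0.0118, against 0.091). H2ac8 had 5.20, 4.37 and 5.71 in NPC and 5.79, 6.02 and 6.22 in ESC, without overlap, and its change of -0.92 ± 0.37 did not pass (adjusted p = 0.158). It was -0.08 with values under 6 set to 6. H2ac4 gave a change of -0.27 ± 0.39 and H2ac21, at 1.24 to 1.44 in NPC and 1.29 to 1.37 in ESC, by -0.01 ± 0.17.

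Of the 11 H2B genes, H2bu2 rose and 0 fell, or 9.09% higher, where 11.1% of all genes rose and 9.54% fell. The changes of the other 10 ran from -0.29 to 0.83. H2bc14, the brightest of those not called, had 9.12, 9.63 and 10.90 in NPC and 9.33, 9.44 and 10.27 in ESC (0.20 ± 0.52, adjusted p = 0.859). H2bc21 (Hist2h2be), known in mouse as a replication-independent H2B of olfactory neurons, had 5.46, 5.49 and 6.67 in NPC and 4.94, 4.83 and 5.42 in ESC. Its groups did not overlap, and its change of 0.81 ± 0.39 passed with the block alone (adjusted p = 0.0434, against 0.236). H2bc18 (Hist2h2bb), with overlapping groups, also passed with the block alone (0.83 ± 0.47, adjusted p = 0.0306 with the block, 0.312 without). H2bc4, H2bc6 and H2bc8 are listed in RefSeq as copies of one another, with changes of -0.03 ± 0.25, 0.23 ± 0.16 and -0.20 ± 0.31. H2bc6 passed only with the floor of 6 (adjusted p = 0.0334), which changed none of its own values. Its groups did not overlap, at 7.34, 7.37 and 7.45 in NPC and 7.15, 7.11 and 7.20 in ESC. The 3 remaining genes of the Hist1 cluster, H2bc3, H2bc22 and H2bc23, gave changes of -0.23 ± 0.17, -0.16 ± 0.29 and -0.29 ± 0.52. The groups of H2bc3 did not overlap, at 5.98, 6.19 and 6.02 in NPC and 6.27, 6.34 and 6.28 in ESC, without a call (adjusted p = 0.436).

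Of the 8 H4 genes, whose product carries the lysine 16 named in the series title, 0 rose and 0 fell. Among all genes these shares were 11.1% and 9.54%. RefSeq lists the H4 genes as copies of one another, except that H4c17 names the others but is not named by them. Their changes ran from -0.14 to 0.77 with a median of 0.16, and 5 of 8 intervals lay inside a 2-fold change. H4c12, the brightest, had 9.69, 10.03 and 10.80 in NPC and 10.23, 10.20 and 9.88 in ESC (0.07 ± 0.33, adjusted p = 0.925). H4c17 had 6.73, 8.05 and 7.30 in NPC and 5.87, 7.23 and 6.67 in ESC. Each of its NPC arrays was above the ESC array of the same number, and it passed with the block alone (0.77 ± 0.48, adjusted p = 0.0182, against 0.356). H4c11, H4c3 and H4c4 gave changes of 0.42 ± 0.35, 0.38 ± 0.25 and 0.25 ± 0.31, and H4c8 and H4c14 by -0.05 ± 0.17 and -0.14 ± 0.29. H4c9 has 3 probes: the brightest gave -0.14 ± 0.32, and the others -0.62 ± 0.17 and -0.55 ± 0.29, without a call (adjusted p over all probes 0.0831 and 0.35). The groups of the second probe did not overlap, at 7.85, 7.97 and 8.13 in NPC and 8.59, 8.65 and 8.56 in ESC.

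Of the 8 clustered H3 genes, 0 rose and 0 fell, where 11.1% and 9.54% of all genes did. Of their intervals, 1 of 8 lay inside a 2-fold change. Their changes ran from -0.25 to 0.42. The replicates of some of them differed by much more than the groups. A range over 2 within a group was seen in 4 of the 58 genes (H3c3, H3c7, H3c15 and H2bl1), or 6.9%, where the share among all genes was 14.2%. H3c3 had 9.14, 9.07 and 13.12 in NPC and 10.50, 9.11 and 12.47 in ESC, and H3c7 had 7.67, 8.15 and 11.58 in NPC and 8.70, 8.10 and 10.89 in ESC. Replicate 3 was the highest array in both groups for both genes, with a range of 4.05 within the NPC group and 3.36 within the ESC group for H3c3. H3c4, the brightest H3 gene, had 12.96, 12.91 and 14.72 in NPC and 13.27, 13.06 and 13.93 in ESC (0.11 ± 0.56, adjusted p = 0.932). H3f3b and the second probe of H3f3a, given above, were highest in replicate 3 as well. H3c13, which RefSeq lists as a copy of H3c3, H3c4 and H3c7, was highest in replicate 2 instead, with 8.37, 9.24 and 8.51 in NPC and 8.09, 9.18 and 8.73 in ESC.

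With this spread, the interval for H3c3 ran from -3.63 to 3.13 and that for H3c7 from -3.15 to 2.96. A change of several-fold in either direction was thus not detectable for them in the fit without the block. With the block their changes of -0.25 and -0.10 did not pass either (adjusted p = 0.693 and 0.862). The other H3 genes, H3c1, H3c8, H3c11 and H3c15, gave changes of 0.38 ± 0.46, -0.12 ± 0.47, 0.42 ± 0.42 and -0.07 ± 0.89. Over the 58 genes, 44 had their highest NPC array and highest ESC array under the same replicate number, 75.9% of them, where the share among all genes was 59.1%. Of the 58, 21 were highest in replicate 3 of both groups, or 36.2%, where the share among all genes was 20.4%. In replicate 2 of both it was 22, or 37.9%, and the share among all genes was not computed. RefSeq names 21 of the 58 as copies, so these are not counts of independent genes.

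**Figure D3:**
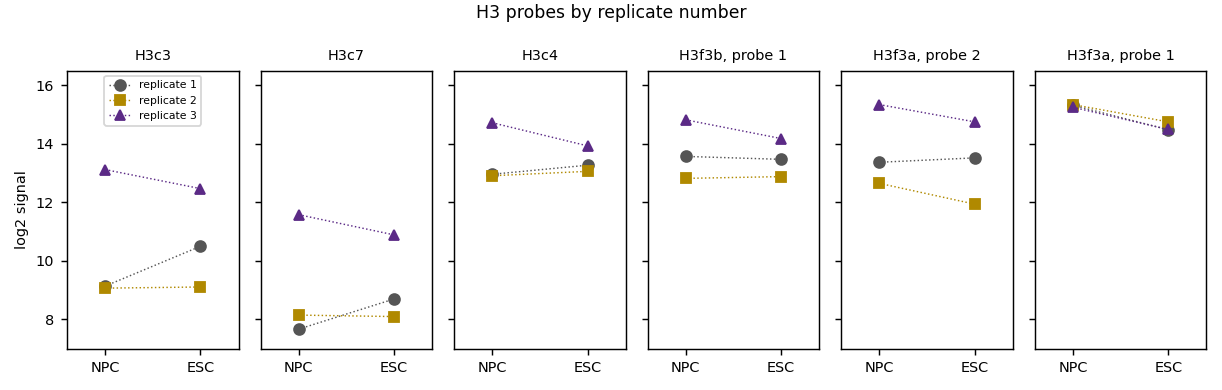
Log2 signal of 5 H3 genes by replicate number, with dotted lines joining arrays of the same number (NPC left, ESC right). Replicate 3 is the top point in both groups for H3c3, H3c7, H3c4, H3f3b and the second probe of H3f3a, while the brighter probe of H3f3a has all 3 replicates close together and higher in NPC.

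Linker histones compact nucleosome arrays, and their makeup is known to shift as cells differentiate. Of the 9 H1 genes, 0 rose and 0 fell, with a median change of 0.70, and 2 of 9 rose with the block, or 22.2%, near the 18.9% of all genes. H1f10 (older symbol H1fx), a replacement linker histone outside the clusters, had 8.12, 7.52 and 9.49 in NPC and 6.44, 5.66 and 7.23 in ESC. All its NPC arrays were above all ESC arrays, and its change of 1.94 ± 0.63 missed the threshold (adjusted p = 0.0882) but passed with the block (0.00319) and with housekeeping centring (0.0494). H1f4, a main H1 subtype of somatic cells, had 7.62, 8.25 and 7.04 in NPC and 6.11, 7.19 and 6.21 in ESC. Its groups overlapped, and its change of 1.13 ± 0.43 passed with the block alone (adjusted p = 0.0151, against 0.139).

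The other S phase subtypes did not pass with or without the block. H1f5 gave a change of 0.77 ± 0.39, H1f3, at the bottom of the scale, by 0.47 ± 0.33, H1f1 by -0.02 ± 0.38 and H1f2 by -0.33 ± 0.47. H1f2 (Hist1h1c) had 6.91, 6.46 and 7.31 in NPC and 6.91, 6.61 and 8.15 in ESC, with groups that overlapped. The testis genes H1f6 and H1f7 gave changes of 0.82 ± 0.52 and 0.70 ± 0.51, and the oocyte gene H1f8 by 0.04 ± 0.30, with no call (adjusted p = 0.368, 0.436 and 0.946).

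Of the classes, all 12 H2A, 8 H2B and 6 H3 genes with a window held CCAAT, against 2 of 7 H4 genes. The octamer was found in 5 of 12 H2A and 5 of 8 H2B windows and in 0 of 6 H3, 0 of 7 H4 and 0 of 9 H1 windows. TATAAA was found in 9 of 12 H2A, 4 of 8 H2B, 2 of 6 H3 and 5 of 7 H4 windows. Of the 5 variant genes with a window, H3f3b alone held the octamer and TATAAA, while 5 of 5 held CCAAT.

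**Figure D4:**
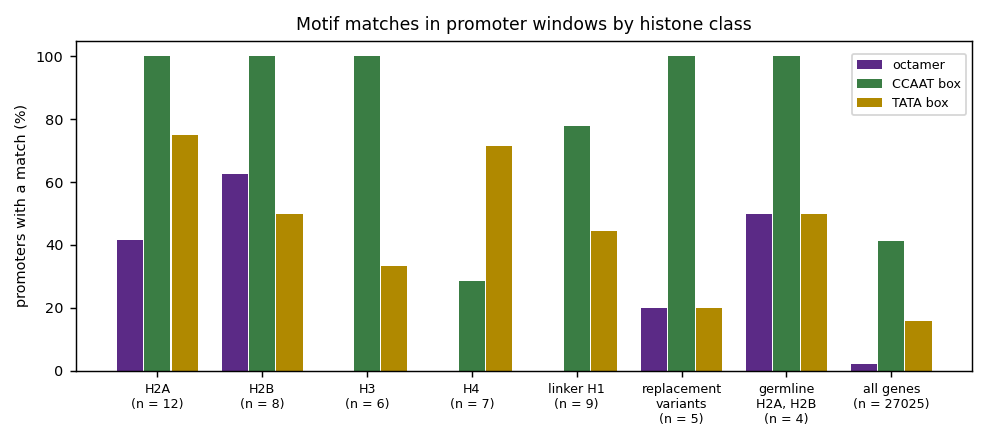
Share of promoter windows (percent) that hold the octamer ATTTGCAT, CCAAT or TATAAA on either strand, by histone class and for all genes, with the number of windows in parentheses. The octamer is seen in 62.5% of H2B, 41.7% of H2A and 1.97% of all windows, and CCAAT in 28.6% of H4 windows.

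The machinery that supplies histones was listed as well. Of 8 measured genes of histone transcription, 0 rose and 0 fell. Yy1 and Coil, the brightest of them, gave changes of -0.19 ± 0.25 and -0.37 ± 0.26. Npat, the cyclin E target that activates clustered histone genes, had 2.31, 1.71 and 1.51 in NPC and 2.78, 3.33 and 5.23 in ESC. Its change of -1.94 ± 0.66, on signals at the bottom of the scale, did not pass (adjusted p = 0.102). Of 16 measured genes of histone mRNA processing and turnover, 0 rose and 2 fell (2 and 4 with the block). The share that fell was 12.5%, where 9.54% of all genes fell, and with the block 25.0%, where 16.7% did. Zfp473, a zinc finger protein of the U7 snRNP step of 3' end processing, had 7.96, 7.96 and 7.41 in NPC and 10.61, 10.91 and 10.22 in ESC, groups far apart, and fell by 2.80 ± 0.27 (adjusted p = 0.00131). Mif4gd, which links the stem-loop binding protein to translation, had 9.65, 9.71 and 9.28 in NPC and 11.74, 11.63 and 11.74 in ESC and fell by 2.15 ± 0.20 (adjusted p = 0.00101). Both falls passed in 6 of 6 fits without an array.

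Of 32 measured histone chaperones and deposition factors, 4 rose and 0 fell (7 and 2 with the block), with a median change of 0.21. The share that rose was 12.5%, near the 11.1% of all genes, and with the block 21.9%, near 18.9%. Npm2, a nucleoplasmin known from the oocyte, rose by 2.54 ± 0.20 to 6.68 in NPC, against 4.15 in ESC (adjusted p = 0.00069), and by 0.68 with values under 6 set to 6. Nap1l2 and Nap1l5, members of the nucleosome assembly protein family, rose by 1.83 ± 0.32 and 1.91 ± 0.24 (adjusted p = 0.0108 and 0.00332). Nap1l5 lay near the bottom of the scale, with means of 3.64 in NPC and 1.73 in ESC, and its change was 0 with values under 6 set to 6. Ubn1, a subunit of the HIRA complex that deposits H3.3, had 10.88, 10.90 and 10.07 in NPC and 9.34, 9.52 and 8.99 in ESC and rose by 1.33 ± 0.30 (adjusted p = 0.0285). Its call held in 1 of 6 fits without an array (highest adjusted p 0.103) and ended with housekeeping centring (adjusted p = 0.112, change 1.25).

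Of 24 measured S phase genes, 0 rose and 2 fell (3 and 2 with the block), with a median change of -0.02 and mean signals per array of 11.85 to 12.02 in NPC and 11.87 to 11.99 in ESC. The share that fell was 8.33%, near the 9.54% of all genes. Cdt1, which licenses replication origins, fell by 0.80 ± 0.18 (adjusted p = 0.0254), and Ccne1, cyclin E1, fell by 1.41 ± 0.34 (adjusted p = 0.036). Each held in 1 of 6 fits without an array, with highest adjusted p of 0.103 and 0.119, and neither passed with housekeeping centring (0.119 and 0.0833).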

How the data were processed

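The authors deposited 1 table of log2 values for 55681 probes on 6 arrays, with Cy3-labelled RNA after 1 round of amplification, per the labels' protocols. The base of the log is taken from the range, 1.03 to 16.18. Once sorted, the 6 columns held the same values, so the deposited values are quantile normalised, and a shift shared by most genes would not show. The submitters' processing notes name limma, with no version. Background correction and detection calls are not stated there. The number of arrays limits the precision.

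Of the probes, 30626 had 1 gene symbol in the platform annotation, 0 had several and 25055 are unnamed here. The probe with the highest mean over 6 arrays stood for each of 21893 genes. The 58 histone genes had 71 probes, 11 genes had several, and 58 matched the RefSeq gene table. NPC were compared with ESC with limma 3.58.1 in R 4.3.3 (lmFit, eBayes, two-sided, no covariate), tested first on simulated data. After group means were removed, NPC and ESC arrays with the same number had r = 0.189, 0.721 and 0.768 (replicates 1, 2 and 3). Each is above 0.1, and on that basis a replicate block was run, although the r of NPC replicate 1 with ESC replicate 2 was higher, at 0.402.

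RefSeq synonyms name 21 of the 58 genes as copies in 5 sets, whose probes may not tell them apart. The search covered only clustered H2B, H3 and H4 symbols and those of H3.3. Copies among the H2A and H1 genes were thus not looked for. Promoters of H2bc4, H2bc21, H2bu1-ps, H2ax, H3c1, H3c7 and H4c14 were not used here. The members, lists and alternatives were chosen with earlier results of these data known. Named genes are every linker and variant gene, called core genes, the brightest uncalled core genes and the 3 largest called changes of each list, or the 2 brightest members where none passed. Every other gene was named after its values were seen. Alternatives were a replicate block, a filter and a floor at 6, the mean of all probes, centring on 14 housekeeping genes, trended robust eBayes, adjustment over all probes, and leaving out each array.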

Additional observations from a re-analysis of the deposited data

How the results depend on the processing

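Of 72 genes compared under 13 alternatives, no called change turned its sign. The count of histone genes that rose was 4, with 11 under the replicate block and 7 with values under 6 set to 6, and 1 to 4 without 1 array. By class, 2 of 12 H2A, 3 of 11 H2B, 1 of 8 H4 and 2 of 9 linker H1 genes rose under the block. These counts were 16.7%, 27.3%, 12.5% and 22.2%, where the share among all genes was 18.9%. With the floor of 6 the counts were 1 for H2A and 2 for H2B. The calls that the floor added were those of H2aj, H2ac10 and H2bc6, which had no signal under 6. With housekeeping centring, which moved every change by -0.08, they were 1 for H2A, 1 for linker H1 and 0 for the variants. For the variants, averaging all probes gave 1, and adjusting over all probes gave 1. Leaving out 1 array gave 0 to 1 for H2A, the germline genes and the variants. The count of genes that fell was 0 under all 13 alternatives. Over all genes, the calls were 2423 higher and 2089 lower, 4147 and 3660 with the block, 1527 and 1297 with the floor, 1709 and 1798 with housekeeping centring, and 1475 and 1289 without ESC replicate 1. Housekeeping centring thus moved the split of calls as well. Its genes include Ywhaz, with a wide spread within both groups, and Hprt, itself called higher in NPC.

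Signs turned for 26 genes, none of them called, all with changes of at most 0.33 in size. With housekeeping centring the changes were -0.04 for H1f8, H2ac11 and H3c13, -0.02 for H2ac15 and H2ax, and -0.01 for H2bu1-ps and H4c12. With the mean of all probes H2aj gave -0.15 and H4c14 gave 0.05, and with the floor H2bl1 gave -0.13. Without 1 array, H1f1 ranged from -0.27 to 0.34, H1f2 from -0.64 to 0.13, H1f8 from -0.14 to 0.25, H2ac21 from -0.06 to 0.03, H2ac4 from -0.50 to 0.07, H2bc14 from -0.31 to 0.58, H2bc22 from -0.34 to 0.05, H2bc23 from -0.62 to 0.17, H2bc4 from -0.24 to 0.09, H2bc8 from -0.43 to 0.05, H2bl1 from -0.36 to 0.65 and H2bu1-ps from -0.08 to 0.20. In the same fits H3c13 ranged from -0.25 to 0.30, H3c15 from -0.65 to 0.91, H3c3 from -1.59 to 0.64, H3c4 from -0.49 to 0.42, H3c7 from -1.32 to 0.73, H3c8 from -0.49 to 0.27, H3f3b from -0.32 to 0.68, H4c12 from -0.25 to 0.31 and H4c9 from -0.36 to 0.18. The cause of these shifts was not tested. Signals near either end of the scale limit what can be read: dim probes from below, and the H2A block from above.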

Other observations

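Some histone genes lie outside the symbols followed above and were looked up after the values were seen. Macroh2a2, which encodes a large H2A variant linked to silent chromatin, had 13.44 to 14.09 in NPC and 10.93 to 11.59 in ESC. The groups were far apart, and it rose by 2.49 ± 0.29, or 5.61-fold (limma adjusted p = 0.0025), in 6 of 6 fits without an array. Macroh2a1 had 12.81, 12.01 and 13.71 in NPC and 11.61, 10.72 and 12.84 in ESC, groups that overlapped, with a change of 1.12 ± 0.67 that passed with the block (adjusted p = 0.00946, against 0.332). Hils1 and H2ab1, at the bottom of the scale, gave changes of -0.28 ± 0.36 and 0.36 ± 0.30 and did not pass (adjusted p = 0.679 and 0.501). Cenpa did not pass either (-0.13 ± 1.14, adjusted p = 0.959).

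Slbp, the stem-loop binding protein of clustered histone transcripts, had 8.26, 7.45 and 12.80 in NPC and 9.72, 7.14 and 12.15 in ESC. Replicate 3 was the highest array of both groups, as it was for 20.4% of all genes, among them the housekeeping gene Ywhaz (6.68, 6.97 and 13.50 in NPC and 8.54, 6.95 and 13.01 in ESC). The change of Slbp, -0.17 ± 1.83, did not pass (adjusted p = 0.967).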
